A study of Rattus norvegicus with 18 samples.

Results

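Transcripts of 10 sialyltransferases (St3gal1 to St3gal6, St6gal1, St8sia1, St8sia3 and St8sia5) were followed in the retina and in the RPE/choroid of female Fischer 344 rats by bulk RNA-seq. The 10 genes were taken from a fixed list of symbols, and all 10 were found among 32285 genes of the retina table and 32552 genes of the RPE/choroid table. St3gal1 was singled out by its measured values in these libraries and was therefore chosen by the readout, so its values are given as a description with no p-value, and counts of called genes cover the other 9. There were 18 libraries, 3 for each of 6 groups. In each tissue the groups were young rats (4 months), untreated aged rats (24 months) and aged rats (24 months) that had received 8-aminoguanine (8-AG), an inhibitor of purine nucleoside phosphorylase, at 5 mg/kg/day in drinking water for 8 weeks from 22 months of age. No group carried an engineered allele, and untreated aged rats were the control for 8-AG and also the aged arm of the aging comparison, so the 2 comparisons share those libraries. The RPE/choroid is the pigment epithelium with the vascular layer beneath it, which had been peeled by hand from the retina. Rats have no macula.

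Sialyltransferases are Golgi enzymes that move sialic acid from its activated form, CMP-sialic acid, onto the ends of glycans on proteins and lipids. They are named for the bond they make and the sugar they act on. The St3gal enzymes make an alpha 2,3 bond to galactose, St6gal1 makes an alpha 2,6 bond to galactose, and the St8sia enzymes add a sialic acid to another sialic acid. St3gal1 caps the core 1 O-glycan, the disaccharide galactose-N-acetylgalactosamine. Peanut agglutinin, the lectin commonly used to stain cone sheaths, binds that disaccharide when it carries no sialic acid. Gangliosides, the sialylated lipids of neurons, are built by St3gal5, St8sia1, St8sia3 and St8sia5, among other enzymes.

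Levels are CPM, counts relative to the library total, with library totals scaled by the trimmed mean of M-values (TMM) over the 9 libraries of a tissue. They can be compared between libraries of a tissue for 1 gene, but not between genes, because transcript length was not corrected, and not between tissues, which were prepared with different kits. Total counts were 12283458 to 15644346 per retina library and 28573828 to 48203050 per RPE/choroid library. The labels do not say whether the libraries of a group came from separate rats, so p-values measure the spread between these libraries, and CPM in bulk tissue cannot separate fewer cells of a type from less RNA per cell. Rod genes were abundant in retina and RPE genes in RPE/choroid, as the labels say, but the 11 rod genes found of 12 listed also summed to between 585 and 53510.4 CPM in the RPE/choroid libraries. RPE/choroid 8-AG-treated library 1 stood apart, with an RPE marker sum (10 of 10 genes) of 5460.5 CPM against 9415 to 19154 CPM in the other 8, and a surface epithelium sum (8 of 8 genes) of 1873 CPM against 17.6 to 286 CPM. RPE/choroid aged library 3 had the next lowest RPE marker sum, 9415 CPM. The 3 retina 8-AG-treated libraries are labelled total RNA and the other 15 libraries polyA RNA, so in retina this label cannot be told apart from the treatment. Lens genes (11 of 11) summed to 2829 and 6231 CPM in young retina libraries 1 and 2 and to 1732 CPM in 8-AG-treated library 1, against 17.4 to 153 CPM in the other 6.

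The first comparison asked which sialyltransferase transcripts differ between aged and young retina. St3gal1, given with no test, was 1.90-fold lower in aged retina. Of the 9 tested genes, St6gal1 and St3gal6 passed the test, with rises of 1.80-fold and 1.71-fold, and the other 7 did not. St3gal1 stood at 502, 504 and 483 CPM in the young libraries, at 268, 245 and 273 CPM in the aged libraries and at 303, 279 and 307 CPM in the 8-AG-treated libraries. Every aged library was below every young one, and the 3 treated libraries lay between the groups, nearer to the aged. The fitted log2 fold change of St3gal1, aged against young, was -0.92 ± 0.06 (SE, 3 libraries a group), with means of 262 ± 14.7 and 496 ± 11.7 CPM (SD, n = 3). These levels rest on 3428 to 7142 counts per library. Leaving out any 1 library kept the value between -0.95 and -0.88. Lens genes summed to 2829, 6231 and 153 CPM in young libraries 1, 2 and 3 and to 17.4 to 24.6 CPM in the aged libraries. The part of lens transcripts in the difference was not tested.

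**Figure D1:**
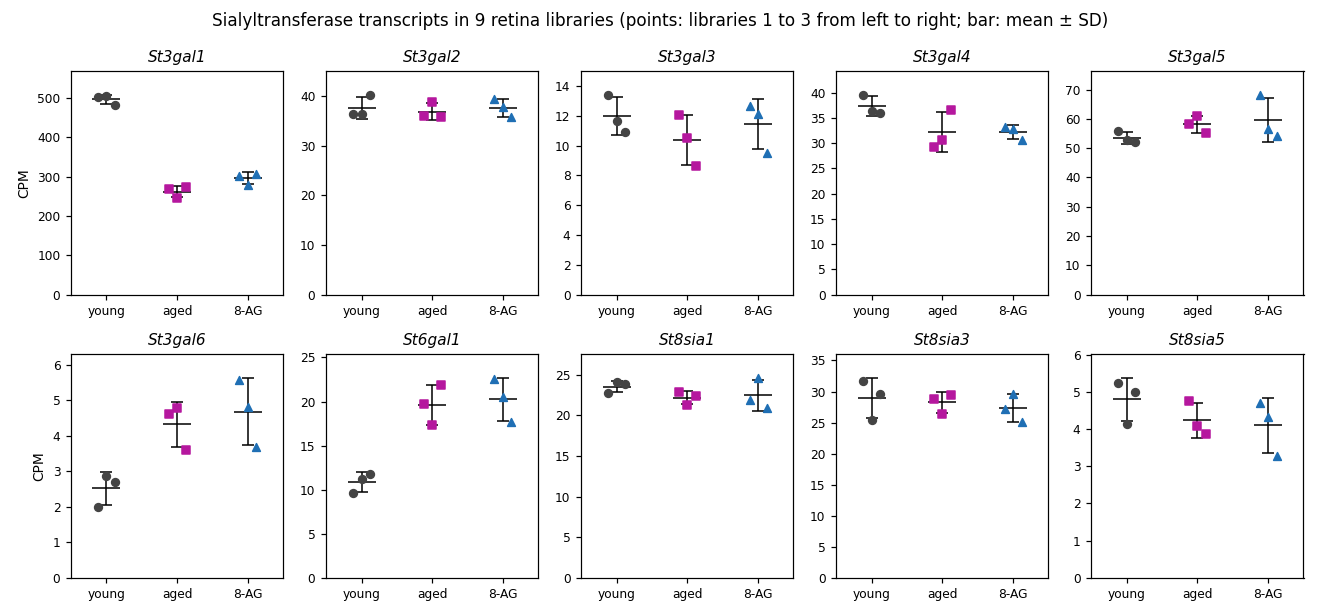
CPM (vertical axes, each from 0) of the 10 sialyltransferases in 3 young, 3 aged and 3 8-AG-treated aged retina libraries, with a point per library and bars for the mean ± SD. St3gal1 falls from 483 to 504 CPM in young to 245 to 273 CPM in aged libraries, while St6gal1 and St3gal6 are higher in all aged libraries than in any young one.

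St6gal1, the enzyme that adds alpha 2,6-linked sialic acid to N-glycans, was at 9.63, 11.2 and 11.8 CPM in young retina, at 19.7, 17.3 and 21.8 CPM in aged retina and at 22.6, 20.5 and 17.7 CPM after 8-AG. The aged and young ranges did not overlap, and the treated range overlapped the aged one. The rise with age was 0.85 ± 0.12 on the log2 scale, or 1.80-fold (edgeR quasi-likelihood test, adjusted p = 0.0018 over 14588 genes). St3gal6, which adds alpha 2,3-linked sialic acid to glycans of the N-acetyllactosamine type, was at 2.0, 2.86 and 2.7 CPM in young retina, at 4.60, 4.78 and 3.59 CPM in aged retina and at 5.56, 4.81 and 3.68 CPM after 8-AG. Again no aged library fell into the young range, although the young values rest on only 26 to 40 counts. Its rise was 0.77 ± 0.22 on the log2 scale, or 1.71-fold (edgeR, adjusted p = 0.044). The call of St3gal6 was lost when any 1 of the 6 libraries was left out (adjusted p from 0.052 to 0.15), whereas St6gal1 remained below 0.05 in each of its 14 alternative settings (adjusted p from 3.4e-05 to 0.011).

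The windows that RefSeq places at the start of the pair that rose are shown so that their sequences can be compared. Each runs from 250 bases before the annotated start to 50 bases after it in the GRCr8 assembly, at chr11:91040355-91040654 on the minus strand for St6gal1 and at chr11:55546538-55546837 on the plus strand for St3gal6. RefSeq windows were matched by symbol for 9 of the 10 genes, all but St3gal1. Capitals mark CCAAT on either strand.
St6gal1: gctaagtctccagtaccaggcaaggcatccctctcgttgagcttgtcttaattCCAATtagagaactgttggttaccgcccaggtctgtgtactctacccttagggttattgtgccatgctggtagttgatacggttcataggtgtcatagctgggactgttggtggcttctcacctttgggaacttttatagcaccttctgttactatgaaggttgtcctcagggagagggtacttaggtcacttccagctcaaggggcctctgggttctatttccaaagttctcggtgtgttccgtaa
St3gal6: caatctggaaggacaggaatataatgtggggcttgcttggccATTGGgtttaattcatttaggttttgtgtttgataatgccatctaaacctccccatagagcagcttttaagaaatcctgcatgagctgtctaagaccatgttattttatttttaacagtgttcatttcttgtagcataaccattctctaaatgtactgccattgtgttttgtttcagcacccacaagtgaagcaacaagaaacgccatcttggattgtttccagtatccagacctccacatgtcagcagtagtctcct
The windows hold 48.3% and 40.0% G and C, against a median of 51.7% over 33469 windows of the same length, and each holds CCAAT once, beginning at position -197 in St6gal1 and at -208 in St3gal6 (counted from the start site). That match is common, since 37.5% of all windows contain CCAAT, and 6 of the 9 matched genes do. GGGCGG, the GC box, which overlaps no CCAAT here, was found once in St6gal1 and not in St3gal6 (33.1% of windows). Neither window holds TTCNNNGAA, the STAT site, on either strand (8.9% of windows). These are letters in an annotated window, and which start sites the retina uses was not measured.

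Among the other alpha 2,3 enzymes, which act on O-glycans, N-glycans or lipids, no change passed the test in aged retina. St3gal4, an enzyme of N-glycans, was at 39.6, 36.3 and 36.0 CPM in young and at 29.3, 30.6 and 36.6 CPM in aged libraries. Aged library 3 lay inside the young range, and the log2 fold change was -0.21 ± 0.10 (edgeR, adjusted p = 0.18). St3gal2, whose substrates overlap those of St3gal1, was at 36.4, 36.4 and 40.3 CPM in young and at 36.1, 38.9 and 35.9 CPM in aged libraries. Its log2 fold change was -0.029 ± 0.08 (edgeR, adjusted p = 0.84), so the closest relative of St3gal1 in substrate gave no detectable difference at this depth. St3gal3, another enzyme of N-glycans, was at 13.4, 11.7 and 10.9 CPM in young and 12.0, 10.5 and 8.64 CPM in aged retina, with overlapping ranges (log2 fold change -0.21 ± 0.15, edgeR adjusted p = 0.39). St3gal5, the GM3 synthase that starts the ganglioside series, was at 55.9, 52.7 and 52.0 CPM in young and at 58.1, 60.9 and 55.2 CPM in aged retina. The lowest aged library was below the highest young one, and the log2 fold change was 0.12 ± 0.07 (edgeR, adjusted p = 0.29).

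The alpha 2,8 enzymes, which extend sialic acid chains on gangliosides, also overlapped between young and aged retina. St8sia1, the GD3 synthase, was at 22.7, 24.1 and 23.9 CPM in young and 22.9, 21.3 and 22.4 CPM in aged libraries (log2 fold change -0.086 ± 0.08, edgeR adjusted p = 0.51). St8sia3 was at 31.8, 25.4 and 29.7 CPM in young and 28.8, 26.4 and 29.5 CPM in aged libraries (-0.036 ± 0.10 on the log2 scale, edgeR adjusted p = 0.84). St8sia5 was at 5.24, 4.14 and 5.00 CPM in young and 4.76, 4.08 and 3.87 CPM in aged libraries (-0.18 ± 0.18 on the log2 scale, edgeR adjusted p = 0.56). For each of these 3 genes the aged range overlapped the young one.

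In all, 2 of the 9 tested sialyltransferases rose and 0 fell at an adjusted p under 0.05, where 14.5% of the 14588 genes tested were called in either direction. The same 2 genes passed the rule used in the study, a fold over 1.5 with an unadjusted P under 0.05, which 8.84% of genes passed. Those 2 were also the genes of the 9 whose groups did not overlap, as was the case for 35.3% of all genes. The median log2 fold change of the 9 was -0.036, against 0.0019 over all genes tested. Markers of cell types moved in the same comparison. The rod sum went from 55584 to 60512 CPM in young to 34985 to 39441 CPM in aged retina (8 of 11 tested rod genes fell), alongside the lower St3gal1. The microglia and macrophage sum (10 of 10 genes) went from 38.8 to 40.8 CPM in young to 117 to 200 CPM in aged retina (8 of 8 tested genes rose), alongside the higher St6gal1 and St3gal6. Cone genes (9 of 9) summed to 318 to 342 CPM in young and 270.5 to 281 CPM in aged retina (4 of 9 fell). None of these 3 lists had a gene at 0 throughout a group, and the part of these cells in the 3 differences was not tested.

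The second comparison asked whether 8-AG moved these transcripts in aged retina. None of the 9 tested genes was called (0 at an adjusted p under 0.05, and 0 at an unadjusted P under 0.05), against 0.0205% of 14631 genes, or 3 genes, called by edgeR (DESeq2 called 18 genes, no member among them). No member passed the fold rule, which 0.957% of genes passed. St3gal1 was 1.13-fold higher after treatment, with a log2 fold change of 0.18 ± 0.07 and means of 296 ± 14.8 CPM treated and 262 ± 14.7 CPM untreated (SD, n = 3). All 3 treated libraries were above all 3 untreated ones, by as little as the gap from 273 to 279 CPM, and all 3 were below the lowest young library. Groups did not overlap for 8.78% of all genes in this comparison. The rod sum overlapped between the groups, at 35500 to 47254 CPM treated and 34985 to 39441 CPM untreated.

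St6gal1 and St3gal6, the pair that rose with age, gave log2 fold changes of 0.041 ± 0.13 and 0.11 ± 0.22 with 8-AG (edgeR, adjusted p = 1.0 for both), and their treated ranges overlapped the untreated. St3gal4 was at 33.2, 32.8 and 30.6 CPM after treatment, inside the untreated range. St3gal2, at 39.4, 37.9 and 35.8 CPM, and St3gal3, at 12.7, 12.2 and 9.49 CPM, overlapped the untreated libraries too. St3gal5 reached 68.2 CPM in treated library 1 and was 56.6 and 54.1 CPM in the other two, so that without library 1 its log2 fold change went from 0.035 to -0.071. The ganglioside enzymes St8sia1 (21.9, 24.6 and 20.9 CPM), St8sia3 (27.1, 29.7 and 25.1 CPM) and St8sia5 (4.71, 4.32 and 3.28 CPM) also overlapped their untreated levels. Across the 9 genes the log2 fold changes ran from -0.052 to 0.13, with a median of 0.025 against -0.0031 over all genes.

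**Figure D2:**
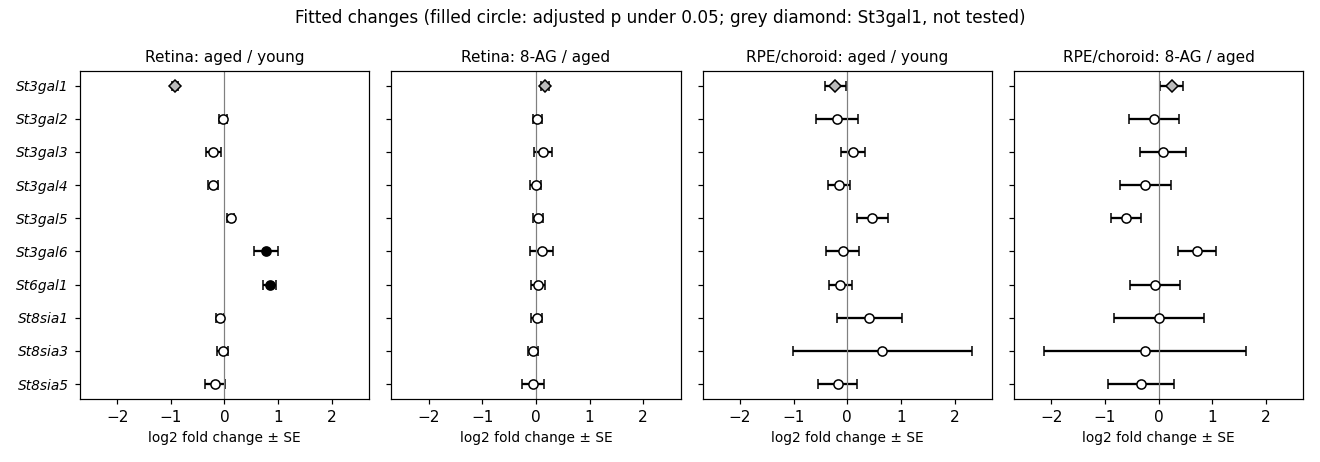
Fitted log2 fold changes ± SE (horizontal axes) of the 10 sialyltransferases in 4 comparisons of 3 against 3 libraries. In aged against young retina St6gal1 (0.85) and St3gal6 (0.77) have filled circles, which mark an adjusted p under 0.05, and the untested St3gal1 (grey diamond) is at -0.92, while the intervals are widest in RPE/choroid.

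In RPE/choroid, aged against young, none of the 9 tested members passed the test. Young libraries 1 and 2 share a label number, as do aged libraries 1 and 2, one marked L and the other R, so the 3 libraries of each group may come from fewer than 3 rats, which the labels do not say. edgeR called 0 of the 9 tested members and 0.0% of 16047 genes (341 genes had an unadjusted P under 0.05, and DESeq2 called 29 genes, no member among them). No member passed the fold rule, passed by 1.35% of genes, and the groups overlapped for all 9, while 7.1% of genes did not overlap. St3gal1 was at 102, 84.0 and 95.9 CPM in young, 93.1, 88.7 and 60.3 CPM in aged and 87.6, 101 and 92.8 CPM in 8-AG-treated libraries. Only aged library 3, which had a low RPE marker sum, fell below the young range, and the log2 fold change with age was -0.22 ± 0.20. Without that library it was -0.044. Across the 9 tested genes the log2 fold changes with age ran from -0.19 to 0.66, with a median of -0.083 against 0.018 over all genes.

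The alpha 2,3 enzymes of N-glycans and the alpha 2,6 enzyme overlapped between young and aged RPE/choroid. St3gal4 was at 320, 283 and 331 CPM in young, 309, 323 and 211 CPM in aged and 101, 344 and 259 CPM in treated libraries. St6gal1 was at 65.3, 63.8 and 71.2 CPM in young, 70.2, 69.4 and 43.7 CPM in aged and 24.1, 72.5 and 76.8 CPM in treated libraries. Both genes were lowest in 8-AG-treated library 1 and next lowest in aged library 3, the pair of libraries with the lowest RPE marker sums. The microglia and macrophage sum (418 and 1060 CPM) and the fibroblast and mural sum (1037 and 3975 CPM) were also lowest in that pair. Endothelial genes and T and B cell genes were lowest in treated library 1 (559 and 20.2 CPM), but not next lowest in aged library 3. The part of any cell type was not tested. St3gal6 was at 32.7, 41.7 and 44.6 CPM in young, 40.3, 49.5 and 22.8 CPM in aged and 69.7, 45.1 and 66.5 CPM in treated libraries. It was lowest in aged library 3 but highest in treated library 1. St3gal3 was at 9.74, 7.55 and 7.00 CPM in young, 7.45, 9.22 and 9.55 CPM in aged and 13.9, 7.92 and 5.43 CPM in treated libraries. St3gal2 was at 16.1, 13.3 and 19.3 CPM in young, 14.8, 20.7 and 7.36 CPM in aged and 9.11, 18.3 and 12.6 CPM in treated libraries. The treated range enclosed the aged one for St3gal3, and the aged range enclosed the treated one for St3gal2.

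St3gal5, the GM3 synthase, was at 45.9, 38.8 and 26.9 CPM in young, 54.9, 64.2 and 35.3 CPM in aged and 27.7, 31.5 and 40.7 CPM in treated libraries. The log2 fold change was 0.47 ± 0.29 with age and -0.61 ± 0.29 with 8-AG, 2 comparisons that share the aged libraries, and neither passed the test (edgeR, adjusted p = 1.0 in both). Without aged library 3, St3gal5 passed the fold rule in each, at 0.69 ± 0.24 with age (unadjusted P = 0.037) and -0.83 ± 0.25 with 8-AG (unadjusted P = 0.023), while the edgeR adjusted p remained 1.0. St8sia5, an alpha 2,8 enzyme of complex gangliosides, was at 53.2, 62.3 and 75.6 CPM in young, 61.5, 77.3 and 30.2 CPM in aged and 15.2, 68.6 and 50.4 CPM in treated libraries. It too was lowest in treated library 1 and next lowest in aged library 3.

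**Figure D3:**
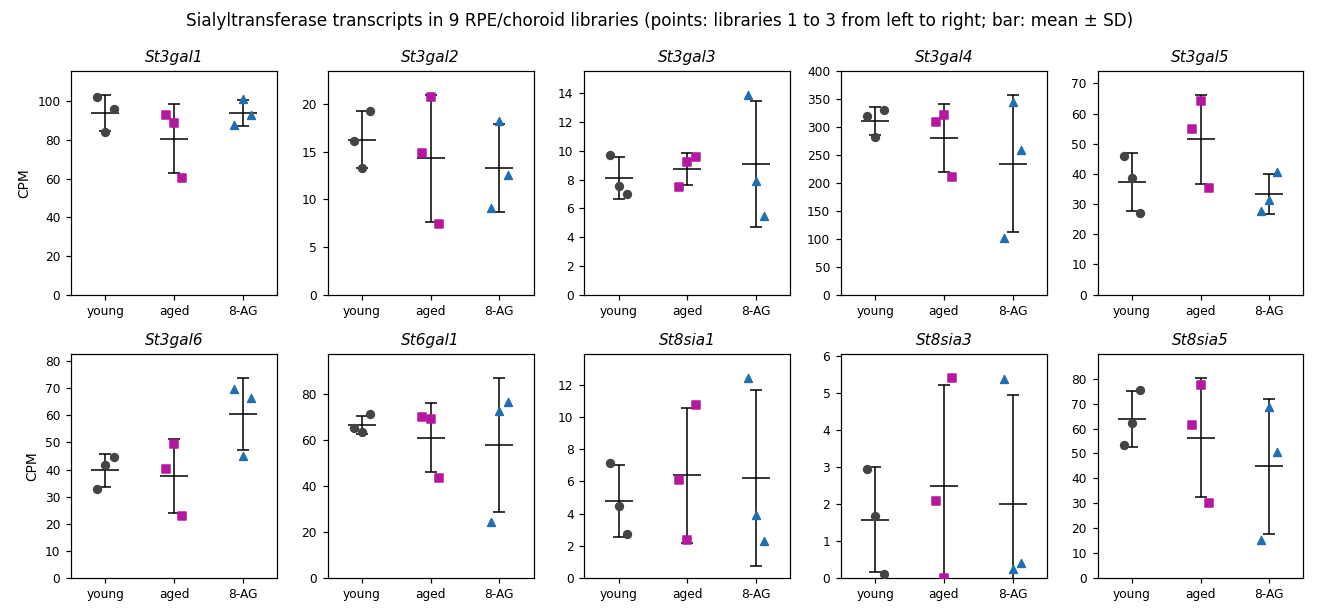
CPM (vertical axes, each from 0) of the 10 sialyltransferases in 3 young, 3 aged and 3 8-AG-treated aged RPE/choroid libraries, with a point per library and bars for the mean ± SD (bars of St8sia3 are cut at 0). For each gene the aged range overlaps both the young and the treated range. St3gal6 was at 45.1 to 69.7 CPM in treated and 32.7 to 44.6 CPM in young libraries. Treated and young libraries were not compared by a test, and the share of all genes that do not overlap between them was not counted. Treated library 1 is lowest for St3gal4 (101 CPM), St6gal1 (24.1 CPM) and St8sia5 (15.2 CPM).

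St8sia1 and St8sia3 varied widely among RPE/choroid libraries of 1 group. St8sia3 was at 2.94, 1.67 and 0.10 CPM in young, 2.06, 0.00 and 5.40 CPM in aged and 5.38, 0.25 and 0.39 CPM in treated libraries, on 0 to 173 counts. St8sia1 was at 7.14, 4.45 and 2.72 CPM in young, 6.07, 2.36 and 10.7 CPM in aged and 12.4, 3.92 and 2.27 CPM in treated libraries. The same libraries differed in their summed rod transcripts. In the 5 libraries with a rod sum over 10000 CPM, St8sia3 was at 1.67 to 5.40 CPM and St8sia1 at 4.45 to 12.4 CPM. In the 4 libraries below it, which hold members of all 3 groups, St8sia3 was at 0.00 to 0.39 CPM and St8sia1 at 2.27 to 3.92 CPM. The ranges of both genes were apart, and those of the other 8 overlapped. The share of all genes whose ranges were apart between these libraries was not counted. Whether such a separation is unusual in this split is therefore not known. Bipolar cell genes (8 of 8), which summed to 371 to 1213 CPM in the 5 and 78.6 to 295 CPM in the 4, and ganglion cell genes (9 of 9), at 417 to 1129 and 194 to 293 CPM, were apart in the same libraries. Cone genes (9 of 9), at 114 to 286 and 32.6 to 48.9 CPM, were apart too. Amacrine and horizontal cell genes and Müller glia genes overlapped. Their sums in treated library 3, 334 and 4955 CPM, lay inside the ranges of the 5 (272 to 791 and 4202 to 6929 CPM). Within the 5, treated library 1 had the highest rod sum (53510 CPM), the highest St8sia1 (12.4 CPM) and 5.38 CPM of St8sia3. Aged library 3 had more St8sia3 than young library 2 (5.40 and 1.67 CPM) at a lower rod sum (16045 and 19143 CPM). No retinal cell type was singled out, and the part of any of them was not tested. St3gal1 was at 88.7 to 101 CPM in the 4 libraries with few rod transcripts and at 60.3 to 102 CPM in the other 5. The split follows libraries and not the study's groups, so it is given without a test.

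**Figure D4:**
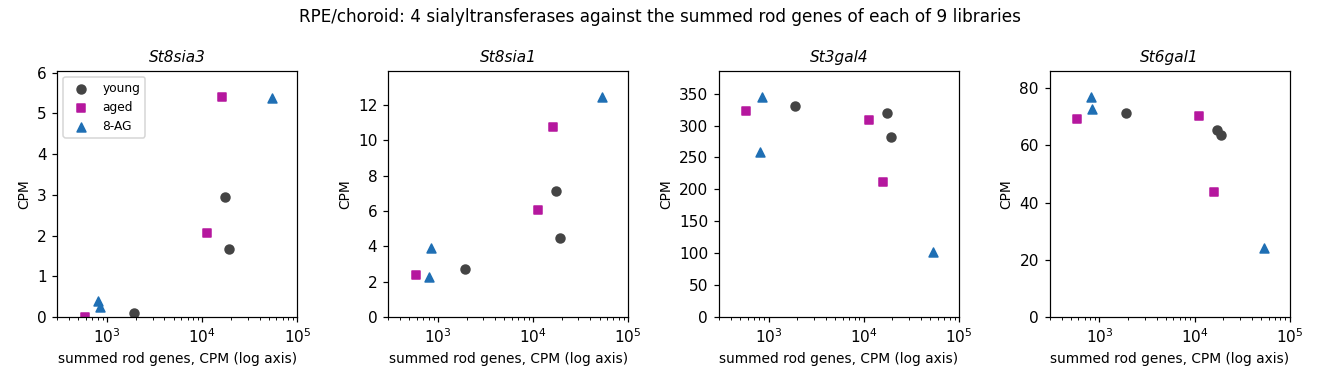
CPM of 4 sialyltransferases (vertical axes, from 0) against the summed CPM of 11 rod genes (horizontal log axis) in 9 RPE/choroid libraries. St8sia3 and St8sia1 are higher in the 5 libraries with rod sums over 10000 CPM, and St3gal4 and St6gal1 are lowest in the library with the highest rod sum, 8-AG-treated library 1.

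With 8-AG in aged RPE/choroid, edgeR called 0 of the 9 members and 0.0% of 16257 genes (274 genes had an unadjusted P under 0.05, and DESeq2 called 81 genes, no member among them). No member passed the fold rule, which 1.65% of genes passed, and the treated and untreated ranges overlapped for all 9, whereas 3.96% of genes did not overlap. The largest fitted changes with the smallest errors were those of St3gal6, 0.71 ± 0.35, and St3gal5, -0.61 ± 0.29, on the log2 scale (edgeR, adjusted p = 1.0 for both). With aged library 3 and treated library 1 left out together, a setting chosen after seeing the data, St3gal6 moved to 0.31 and St3gal5 to -0.73, where St3gal5 passed the fold rule (unadjusted P = 0.022) with an edgeR adjusted p of 1.0. St3gal1 was at 0.24 ± 0.22. The median over the 9 genes was -0.089, against 0.011 over all genes tested.

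Whether the changes differed between the tissues was tested as an interaction in limma. For aging, 0 of the 9 members were called, against 0.0357% of 16792 genes (6 genes), and 2 members had an unadjusted P under 0.05, as did 1185 of the 16792 genes. The change of St6gal1 was lower in RPE/choroid than in retina by -1.01 ± 0.26 on the log2 scale (limma, adjusted p = 0.18), and that of St3gal6 by -0.93 ± 0.42 (limma, adjusted p = 0.71). Neither difference between the tissues passed the test. For St3gal1 the change was higher in RPE/choroid by 0.67 ± 0.19 on the same scale, given with no test. For 8-AG, 0 of 9 members and 0.0% of 16915 genes were called (205 genes and 0 members at an unadjusted P under 0.05, and 0 genes at an adjusted p under 0.05 when the interaction was fitted in edgeR).

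The genes around these enzymes were read from lists of the same pathway. Of 50 such genes tested in aged against young retina, 6 rose and 4 fell at an adjusted p under 0.05 (edgeR), where 14.5% of all genes were called, and their median log2 fold change was 0.11. Among the other sialyltransferases, St6galnac6 rose and St6galnac5 fell, of 8 tested. Both add alpha 2,6-linked sialic acid to N-acetylgalactosamine. St6galnac5 was at 17.5, 14.8 and 17.2 CPM in young and 12.2, 8.99 and 11.3 CPM in aged libraries (-0.61 ± 0.13 on the log2 scale, edgeR adjusted p = 0.014). St6galnac6 was at 66.4, 60.4 and 62.2 CPM in young and 73.7, 84.2 and 78.6 CPM in aged libraries (0.32 ± 0.07, edgeR adjusted p = 0.012). The groups did not overlap for either gene.

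Of 10 genes of sialic acid supply and turnover, 1 fell and 1 rose. Gne, the rate-limiting enzyme of sialic acid synthesis, was at 72.7, 68.1 and 86.1 CPM in young and 61.3, 55.4 and 58.9 CPM in aged libraries (-0.37 ± 0.09 on the log2 scale, edgeR adjusted p = 0.019). Siae, which removes acetyl groups from sialic acid, rose by 0.55 ± 0.13 on the log2 scale (edgeR adjusted p = 0.021), and its lowest aged library (28.2 CPM) was above its highest young library (23.3 CPM). None of the 5 sialidase-list genes tested was called, and their log2 fold changes ran from -0.23 to 0.27. Of 9 ganglioside enzymes, 1 rose. B4galt5, a lactosylceramide synthase, rose from 33.6, 31.3 and 31 CPM to 37.8, 48.3 and 40.4 CPM (0.40 ± 0.10 on the log2 scale, edgeR adjusted p = 0.023).

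**Figure D5:**
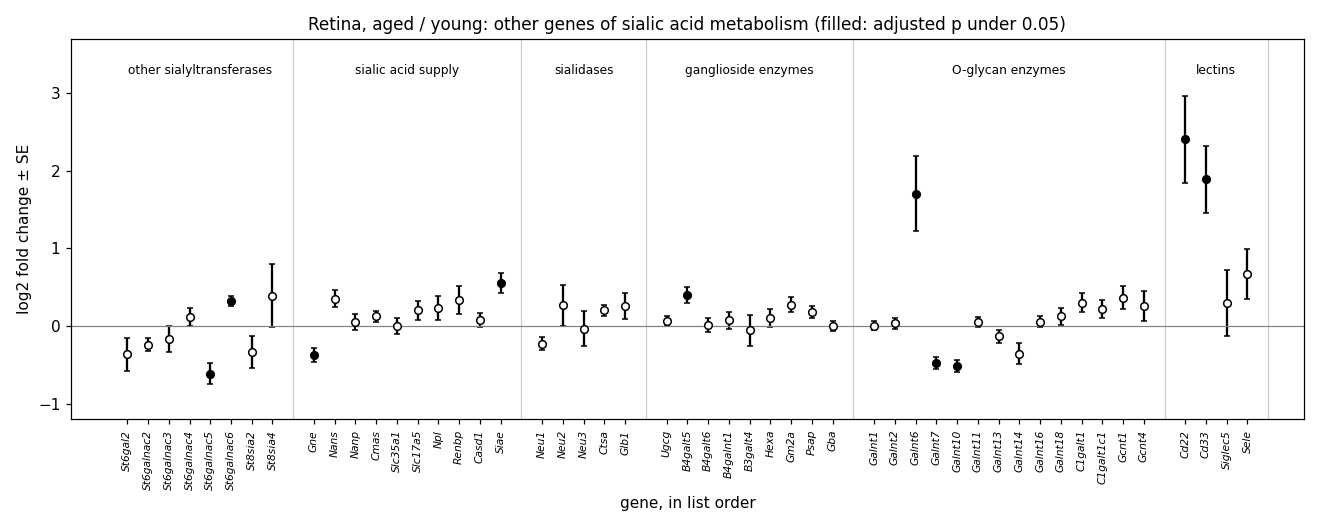
Fitted log2 fold changes ± SE, aged against young retina, of 50 genes in 6 lists around the sialyltransferases (horizontal axis, genes in list order). Filled points mark the 10 genes at an adjusted p under 0.05, of which Galnt7, Galnt10, Gne and St6galnac5 are below 0.

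O-glycan enzymes, which build the structures that St3gal1 caps, went both ways, with 1 of 14 tested genes rising and 2 falling. Galnt7 and Galnt10 are N-acetylgalactosaminyltransferases, the enzyme family that starts and fills in O-glycans. Galnt7 fell from 188, 202 and 208 CPM in young to 136, 134 and 160 CPM in aged libraries (-0.48 ± 0.08 on the log2 scale, edgeR adjusted p = 0.0033). Galnt10 fell from 87.4, 88.6 and 78.5 CPM to 60.9, 54.3 and 62.8 CPM (-0.52 ± 0.08, edgeR adjusted p = 0.002). Galnt6, of the same family, rose by 1.71 ± 0.48 on the log2 scale (edgeR adjusted p = 0.042), from 3 to 6 counts per young library to 12 to 29 counts per aged library. That call held in only 7 of 14 alternative settings.

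Of 4 lectin genes tested that bind sialic acid, 2 rose, both from very low counts. Cd22, a B cell and microglial receptor, went from 3 to 10 counts per young library to 16 to 58 per aged library (2.40 ± 0.56 on the log2 scale, edgeR adjusted p = 0.022). Cd33, a myeloid receptor, went from 3 to 6 counts to 14 to 27 counts (1.89 ± 0.43, edgeR adjusted p = 0.017). Both belong to a family of similar genes among which reads could be split, and both moved with the microglia and macrophage sum given above. The T and B cell sum (9 of 10 genes) also went from 4.47 to 4.66 CPM in young to 9.40 to 14.7 CPM in aged retina, with Ms4a1 at 0 in both groups and Cd3d, Cd3g and Cd8a at 0 in young (1 of 1 tested gene rose). The part of either list was not tested. In the other 3 comparisons 0 of the pathway genes passed an adjusted p under 0.05. With 8-AG in retina 2 of 51 tested had an unadjusted P under 0.05 (edgeR), as did 537 of all 14631 genes. In RPE/choroid it was 1 of 58 with age (341 of all 16047 genes) and 1 of 60 with 8-AG (274 of all 16257 genes). These 4 genes, named after their values were seen, were St6galnac2 and Slc17a5, both lower with 8-AG in retina (-0.33 ± 0.09 and -0.42 ± 0.14 on the log2 scale), St6galnac3, lower with age in RPE/choroid (-0.56 ± 0.19), and Galnt12, higher with 8-AG in RPE/choroid (1.74 ± 0.52), where it was the 1 pathway gene that passed the fold rule. Galnt12 was at 22.7, 6.72 and 10.7 CPM in treated and 3.58 to 4.42 CPM in untreated libraries, and its level in treated library 1 was the highest of the 9.

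The genes whose levels ran most like St3gal1 were ranked by Pearson correlation of log2(CPM + 0.5) over the 9 libraries of a tissue, as a description, since libraries of a group share their condition. In retina, over 14753 genes, they were Fam120a (0.991), R3hdm1 (0.990), Sema7a (0.989), C2cd2l (0.989) and Wif1 (0.986). Each had its highest mean in young and its lowest in aged retina, as St3gal1 did, which follows largely from how they were picked. Sema7a, a membrane-anchored semaphorin, had means of 501, 227 and 282 CPM in young, aged and treated retina. Wif1, a secreted Wnt inhibitor, had means of 5.64, 2.17 and 2.65 CPM. In RPE/choroid, over 16492 genes, they were Extl3 (0.964), Acacb (0.949), Setd7 (0.946), Gpbp1l1 (0.937) and Zfp335 (0.932), and none of them was among the retina 5. There St3gal1 was lowest in aged library 3 (60.3 CPM) and next lowest in young library 2 (84.0 CPM). How far these correlations rest on aged library 3 was not tested. Extl3, a glycosyltransferase of heparan sulfate synthesis, had means of 56.9, 43.3 and 50.6 CPM in young, aged and treated RPE/choroid.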

How the data were processed

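Retina and RPE/choroid RNA was sequenced by the authors from 18 libraries, 3 per group. The retina file holds expected counts, which the authors deposited as unrounded estimates per gene, and a matching TMM-scaled CPM signal table deposited beside it was used only to pair gene IDs with symbols. The RPE/choroid files hold raw counts per gene as deposited. The submitters' processing notes name Bowtie2 2.1.0, RSEM 1.2.15, edgeR and the build Rnor_6.0, with no role given. The program that made the RPE/choroid counts and its strand setting are not given in the sources used here. The authors' own fold changes and p-values, held in other columns, were not used. Expected counts were rounded to whole numbers. Each comparison was fitted over its 6 libraries in edgeR 4.0.16 (R 4.3.3) with filterByExpr, TMM and the robust quasi-likelihood F-test, two-sided, with Benjamini-Hochberg adjustment over all genes tested. SEs are the log2 fold change over the root of F. Tissue interactions used limma 3.58.1 (voom with quality weights). DESeq2 1.42.0, other filters and scalings, a replicate block, summed libraries of 1 label number and leaving out each library were alternatives. The steps were tested on simulated data. The members and lists were chosen with earlier results of these data known. One gene of the ganglioside list is not reported here. Text names every member, up to 4 called genes per list by size of change (or 1 where none passed) and the 5 genes most like St3gal1. Symbols come from the authors' tables, and promoter windows from RefSeq (GRCr8).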

Additional observations from a re-analysis of the deposited data

How the results depend on the processing

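The count of sialyltransferases called in aged against young retina, 2, went to 1 under the DESeq2 Wald test, to 1 with the replicate block and to between 1 and 1 when each library was left out. St3gal6 is the call lost each time (adjusted p = 0.13 in DESeq2 and 0.078 with the block), and St6gal1 passed throughout. Of the pathway genes called in that comparison, Galnt7 and Galnt10 passed in all 14 alternatives. St6galnac5 and St6galnac6 passed in 13, Cd22 in 12, Gne and Siae in 11, B4galt5 and Cd33 in 10 and Galnt6 in 7. Counts of members at an adjusted p under 0.05 in the other comparisons and interactions were 0 in all alternatives, while the fold rule went from 0 to 1 (St3gal5) without aged library 3 in both RPE/choroid comparisons, and with 8-AG also without aged library 3 and treated library 1. No pairing by library number was assumed in the main fits. Same-numbered libraries deviated together by correlations of -0.294 to 0.236 in retina and -0.605 to 0.692 in RPE/choroid. Differently numbered libraries ran from -0.432 to 0.419 and from -0.733 to 0.806. With 3 libraries a group this check cannot exclude a pairing. Over all genes, calls in aged against young retina ranged from 1245 without young library 2 to 2355 with no filter. The calls with 8-AG in retina went from 3 to 18 in DESeq2, to 10 with no filter and to 0 with the block. In RPE/choroid DESeq2 called 29 genes with age and 81 with 8-AG, where edgeR called 0. The tissue interaction of aging gave 6 calls in limma, 27 in edgeR and 0 without quality weights, and that of 8-AG went from 0 to 2 without retina aged library 2. The causes were not tested. Summing the RPE/choroid libraries that share a label number (1 pair in young and 1 in aged) left 0 members called. No called change turned direction in any alternative. Some values that had not passed did change sign, as St8sia3 with age in RPE/choroid (-0.58 to 1.47 over the libraries left out). Low counts limit St8sia3 in RPE/choroid (0 to 173 per library) and St3gal6 in young retina (26 to 40).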

Other observations

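St6galnac1, a further sialyltransferase that acts on O-glycans, was singled out after its values were seen. It stood at 19.5 CPM (626 counts) in RPE/choroid 8-AG-treated library 1 and at 0.00 to 0.33 CPM (0 to 10 counts) in the other 8 RPE/choroid libraries. The surface epithelium sum was 1873 CPM in that library, against 17.6 to 286 CPM in the other 8, and its part in the value was not tested. In retina the gene had 1 or 2 counts in every library. Galnt3, another O-glycan enzyme, had a log2 fold change of 2.48 ± 1.34 with 8-AG in RPE/choroid, which did not pass the test (edgeR, adjusted p = 1.0). It was at 9.99 CPM in the same treated library 1 and at 0.33 and 0.72 CPM in the other two treated libraries, against 0.62 to 0.78 CPM in the aged libraries, so the higher mean rests on that library.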
